A study of Mus musculus with 6 samples.

Results

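The genes described here are *Pmp22*, *Mbp*, *Sox10*, *S100b*, *Mag*, *Prx*, *Ngfr* and *Egr2*, which are genes of Schwann cells and of the myelin that these cells wrap around axons. They were chosen by their symbols, with earlier results of these data known, and all 8 were among the 19831 genes listed for this series. RNA was sequenced from the inguinal adipose tissue (iAT), the subcutaneous fat depot of the mouse groin, at postnatal day 6. Total RNA of 3 wild-type and 3 Npffr1-KO samples was compared, and *Npffr1* encodes a receptor of neuropeptide FF. The mice of both genotypes were untreated as far as the labels say, and were kept free of specified pathogens. The labels give neither the strain, the sex and the knockout allele nor whether a sample was 1 mouse or a pool, so the p-values measure only the spread between these samples.

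Schwann cells are the glia of peripheral nerves, and fat depots hold them in the nerve bundles that cross the tissue. *Sox10* sets and keeps the identity of the lineage, and *Egr2* acts with it to switch on the genes of myelin and of myelin lipids. Myelination of mouse nerves begins around birth and is at its most active in the first postnatal weeks, when Schwann cells make large amounts of mRNA for myelin proteins.

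The deposited table lists 1 value per genotype and gene, in normalized counts, and the ratio of the 2 values is a fold change that the authors' tool had drawn towards 0. For genes of low and middle level the reads of each of the 6 libraries could be worked out from the digits of these values. This gave the genotype of each library but not its sample number, so the libraries are called wild-type a, b and c and Npffr1-KO a, b and c. Reads per library were found for 5 of the 8 genes, *Sox10*, *S100b*, *Mag*, *Ngfr* and *Egr2*, with 155 to 1056 reads in a library. For *Pmp22*, *Mbp* and *Prx*, which lie above the limit of the search, only the genotype values exist, with no spread and no test. *Npffr1* itself had 1, 0 and 5 reads in wild-type a, b and c and 0 reads in each of the 3 Npffr1-KO libraries, which allows up to 3 reads in each, so its level was too low to check the labels. *Xist*, a transcript of female cells, was listed at 1716 in wild-type and 2464 in Npffr1-KO, and the Y-linked gene *Ddx3y* at 1112 and 935. RNA of both sexes was thus among the 6 libraries. Reads per library were not found for these genes. A listed value is no plain mean of its genotype, as *Npffr1* shows with 0.855 for Npffr1-KO. The sexes within each genotype therefore cannot be told.

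*Pmp22* and *Mbp* led in level. Per kilobase of the deposited gene length, the mean of the 2 genotypes was 6210.0 normalized counts for *Pmp22* and 3168 for *Mbp*. *S100b* followed at 362, *Prx* at 313, *Ngfr* at 232, *Sox10* at 208, *Mag* at 155 and *Egr2* at 81.6. The order among the 5 genes with reads per library was loose. On the same scale, *S100b* ran from 233 to 520.2 over the 6 libraries, *Ngfr* from 189 to 289, *Sox10* from 120.2 to 381, *Mag* from 97.3 to 256 and *Egr2* from 56.9 to 159. Each of these ranges overlapped that of its neighbour in the order.

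*Sox10* also marks melanocytes, and several myelin genes are shared with oligodendrocytes, so genes of these cells were read as well. Of 8 listed oligodendrocyte genes 3 had a mean of at least 10, namely *Olig2*, at no more than 13.4 in either genotype, *Cldn11* at 299.5 in wild-type and 237 in Npffr1-KO and *Aspa* at 270.4 and 387. *Aspa* and *Cldn11* are also made by other cell types, and the defining genes *Mog*, *Mobp* and *Olig1* were listed between 1.14 and 3.07 in either genotype. The libraries of *Aspa* did not overlap, higher in Npffr1-KO, as in 11.4% of all genes fitted. Its limma log2 change was 0.54 with an adjusted p of 0.101. Of 8 listed melanocyte genes 4 had a mean of at least 10. *Mitf*, a transcription factor of melanocytes that other cells also make, had the highest listed value, 263 for wild-type against 185 for Npffr1-KO. Its libraries did not overlap, with 259, 282 and 251 in wild-type a, b and c and 181, 198 and 173 in Npffr1-KO a, b and c. In this direction 11.8% of all genes fitted did not overlap. Limma gave *Mitf* a log2 change of -0.52 (adjusted p = 0.114). *Tyr* was listed at 121 and 115, *Pmel* at 101 and 79.6 and *Dct* at 9.08 and 11.3, while *Tyrp1*, *Mlana*, *Oca2* and *Slc45a2* did not exceed 4.44. Melanocyte genes were thus not all at 0, and their part in *Sox10* was not tested.

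The sequences just upstream of the genes were read for short cores of the SOX and EGR families, to which *Sox10* and *Egr2* belong, to show where a match stands. The EGR core used was loose, with N for any base. RefSeq (GRCm38.p6) gave 15 start sites for 6 of the 8 genes. In the 250 bases before a start, on both strands, the SOX core ACAAAG or ACAATG was present in 25.2% and the EGR core GNGGGCG in 28.3% of 32851 promoters, and a match of either core is no match of the other. The SOX core was found in 2 of 3 promoters of *Mag*, and the EGR core in 2 of 4 promoters of *Pmp22*, in that of *Ngfr* and in 1 of 5 of *Egr2*. Neither was found for *Prx* and *S100b*. A match is a description of letters and not a site of binding.

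Only windows that hold a match are shown, to place its letters, and binding of a factor there was not tested. The matching window farthest upstream is given for *Mag* (chr7:30914923-30915172, minus strand), *Pmp22* (chr11:63131207-63131456, plus strand) and *Egr2* (chr10:67535249-67535498, plus strand), written along the gene. Capitals mark the matches, all of which read on the opposite strand, 61 bases before the start of *Mag* and 24 before that of *Egr2*. In *Pmp22* 3 matches lie close together, and 2 of them overlap.
Mag: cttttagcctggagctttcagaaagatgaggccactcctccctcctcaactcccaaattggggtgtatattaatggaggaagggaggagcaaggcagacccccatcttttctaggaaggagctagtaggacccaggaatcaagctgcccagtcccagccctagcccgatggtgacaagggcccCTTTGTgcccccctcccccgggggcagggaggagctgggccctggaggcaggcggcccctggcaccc
Pmp22: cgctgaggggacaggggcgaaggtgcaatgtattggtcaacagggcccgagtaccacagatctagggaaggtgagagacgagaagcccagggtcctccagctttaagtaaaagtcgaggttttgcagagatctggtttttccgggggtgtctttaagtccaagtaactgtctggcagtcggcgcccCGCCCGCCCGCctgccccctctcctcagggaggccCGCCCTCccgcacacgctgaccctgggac
Egr2: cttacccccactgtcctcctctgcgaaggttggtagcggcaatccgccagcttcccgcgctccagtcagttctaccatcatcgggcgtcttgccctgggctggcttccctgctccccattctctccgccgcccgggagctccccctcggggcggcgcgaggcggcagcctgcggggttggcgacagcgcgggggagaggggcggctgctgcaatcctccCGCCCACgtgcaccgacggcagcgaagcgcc

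*Sox10* was lower in Npffr1-KO, without passing the test. Its normalized count was 465, 1034 and 695 in wild-type a, b and c, and 348, 326 and 511 in Npffr1-KO a, b and c. Wild-type b was far above all others, and wild-type a lay below Npffr1-KO c, so the genotypes overlapped. The means were 731 ± 286 (SD, n = 3) and 395 ± 101 (SD, n = 3). The log2 change in limma was -0.84 with an SE of 0.25, with an adjusted p of 0.117. The exact permutation test, two-sided, gave p = 0.20, where 3 libraries against 3 cannot go below 0.10. Without wild-type a the limma log2 change was -1.13 and the adjusted p 0.0473, which passed the threshold, and without wild-type b the change was -0.55 and the adjusted p 0.427.

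**Figure D1:**
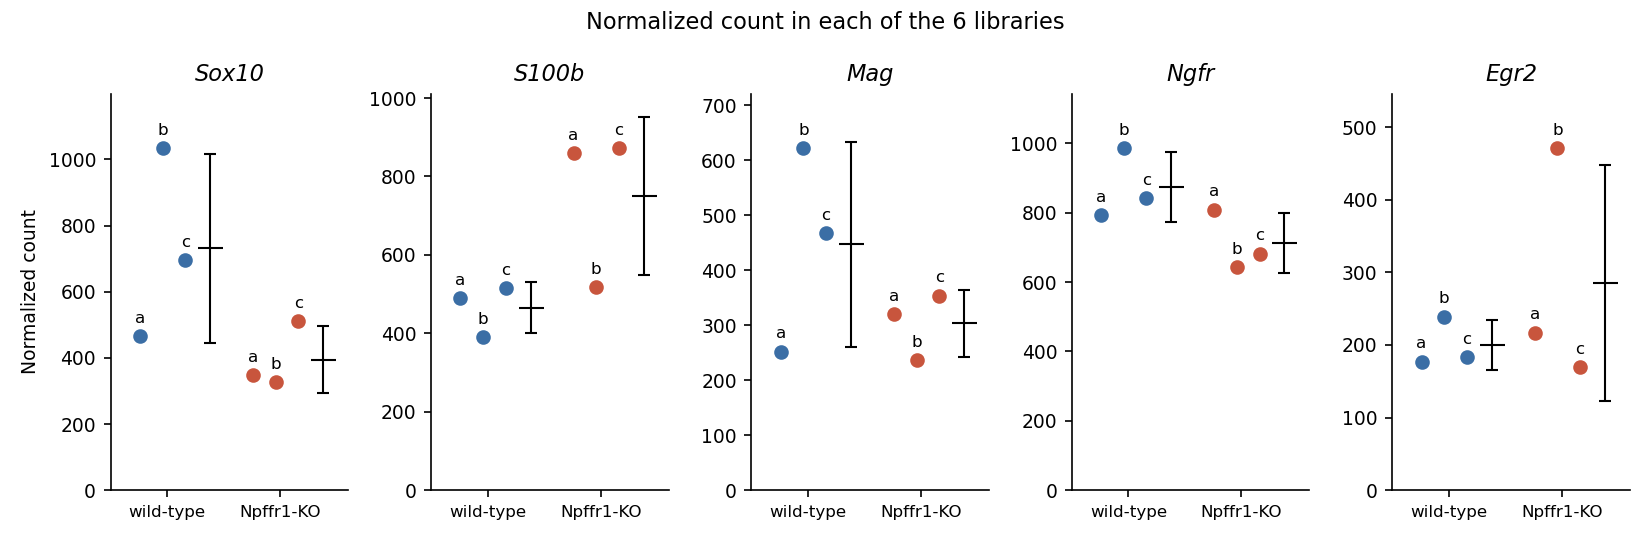
Normalized count (y axis, linear, from 0) of the 5 genes with reads per library, in wild-type (blue) and Npffr1-KO (red) libraries a, b and c; the bar beside each group is the mean ± SD of 3 libraries. Wild-type b is the highest of the 6 libraries for *Sox10*, *Mag* and *Ngfr*, Npffr1-KO b stands alone for *Egr2*, and *S100b* is higher in Npffr1-KO with 517 in its lowest library against 516 in the highest wild-type one.

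The myelin genes *Mag*, *Prx*, *Mbp* and *Pmp22* all had lower values in Npffr1-KO. *Mag* encodes an adhesion protein of the myelin membrane that faces the axon. Its normalized count was 252, 622 and 467 in wild-type a, b and c, and 319.9, 236 and 354 in Npffr1-KO a, b and c. Wild-type a was thus inside the Npffr1-KO range, while wild-type b and c were above it. The means were 447 ± 186 and 303 ± 60.4 (SD, n = 3 each), the limma log2 change was -0.48 with an SE of 0.27, and the adjusted p was 0.371. The exact permutation test gave p = 0.30, two-sided. Leaving out wild-type b reduced the log2 change of *Mag* to -0.20, and leaving out wild-type a brought it to -0.85.

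*Prx* encodes periaxin, a scaffold of the outer Schwann cell membrane that links it to the basal lamina through *Drp2* and dystroglycan. It was listed at 1881 in wild-type and 1158 in Npffr1-KO, a log2 ratio of -0.70. *Mbp*, which compacts the inner faces of the myelin membrane and is also transcribed in other forms by lymphocytes, was listed at 8453 and 6228, a log2 ratio of -0.44. *Pmp22*, a membrane protein of compact myelin that fibroblasts also make, was listed at 12246 and 10098, a log2 ratio of -0.28. These 3 differences have no replicate check.

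*Ngfr* encodes the low-affinity neurotrophin receptor p75, which immature and non-myelinating Schwann cells carry and myelinating ones lose, and which some stromal cells carry too. Its normalized count was 792, 986 and 842 in wild-type a, b and c, and 809, 644 and 682 in Npffr1-KO a, b and c. Only Npffr1-KO a reached into the wild-type range. The limma log2 change was -0.30 with an SE of 0.12 and an adjusted p of 0.227, and the exact permutation test gave p = 0.20, two-sided. Of the 5 genes, *Ngfr* varied least between libraries of 1 genotype relative to its mean, with 873 ± 101 and 711 ± 86.2 (SD, n = 3 each).

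*S100b* was higher in Npffr1-KO, without passing the test. It encodes a calcium-binding protein that marks Schwann cells in nerve and is also made by adipocytes. Its normalized count was 489, 391 and 516 in wild-type a, b and c, and 859.6, 517 and 872 in Npffr1-KO a, b and c. Wild-type b, the library highest in *Sox10*, was the lowest in *S100b*. The genotypes did not overlap, but by a margin of 516 against 517 that is far within counting error, and under upper-quartile scaling they overlapped. The limma log2 change was 0.66 with an SE of 0.19 and an adjusted p of 0.114, and the exact permutation test gave p = 0.10, two-sided, the smallest possible. Without Npffr1-KO b, its lowest Npffr1-KO library, the change was 0.90 and the adjusted p 0.0205, which passed the threshold. In that setting limma called 151 of all genes fitted, against 70 with all libraries. With any other library left out *S100b* did not pass, with changes of 0.53 to 0.74 and adjusted p-values of 0.144 to 0.413. Without wild-type b the change was 0.54 and the adjusted p 0.413.

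*Egr2* did not follow *Sox10* either. Its normalized count was 177, 239 and 183 in wild-type a, b and c, and 217, 471 and 169 in Npffr1-KO a, b and c. Npffr1-KO b held more than the other libraries of its genotype together, while Npffr1-KO c was the lowest of the 6. The limma log2 change was 0.39 with an SE of 0.30 and an adjusted p of 0.522, and the exact permutation test gave p = 0.70, two-sided. Without Npffr1-KO b the log2 change was -0.04. *Egr2* is also an immediate early gene, switched on within minutes by many stimuli in many cell types. Of the 5 genes of the immediate early list that were fitted, 4 were highest in Npffr1-KO b, against 10.4% of all genes fitted. These genes share the same libraries, so their count is not independent evidence. Among them *Ier3*, named here after its values were seen, had 197, 191 and 179.6 in wild-type a, b and c, and 412, 475 and 196 in Npffr1-KO a, b and c. The level of *Ier3* was thus high in Npffr1-KO a too, where *Egr2* had 217. The part of an immediate early response in the values of *Egr2* was not tested.

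Counted over the set, 6 of the 8 genes had a lower and 2 a higher value in Npffr1-KO. A log2 ratio past 0.5 in size was reached by *Sox10*, *Prx* and *Mag* downwards and by *S100b* upwards. Across the 15309 genes that reached a mean of 10, 4.78% were past this size downwards and 4.37% upwards, together 9.15%. In the limma fit 0 of the 5 genes with reads per library passed an adjusted p of 0.05, against 0.774% of the 9047 genes fitted (0.398% lower and 0.376% higher in Npffr1-KO). At an unadjusted p under 0.05 there were 3, *Sox10*, *S100b* and *Ngfr*, against 17.7% of all genes fitted. Genotypes that did not overlap were found for 1 of the 5, *S100b*, in the upward direction, where 11.4% of all genes fitted did so, and for 0 in the downward direction, where 11.8% did.

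**Figure D2:**
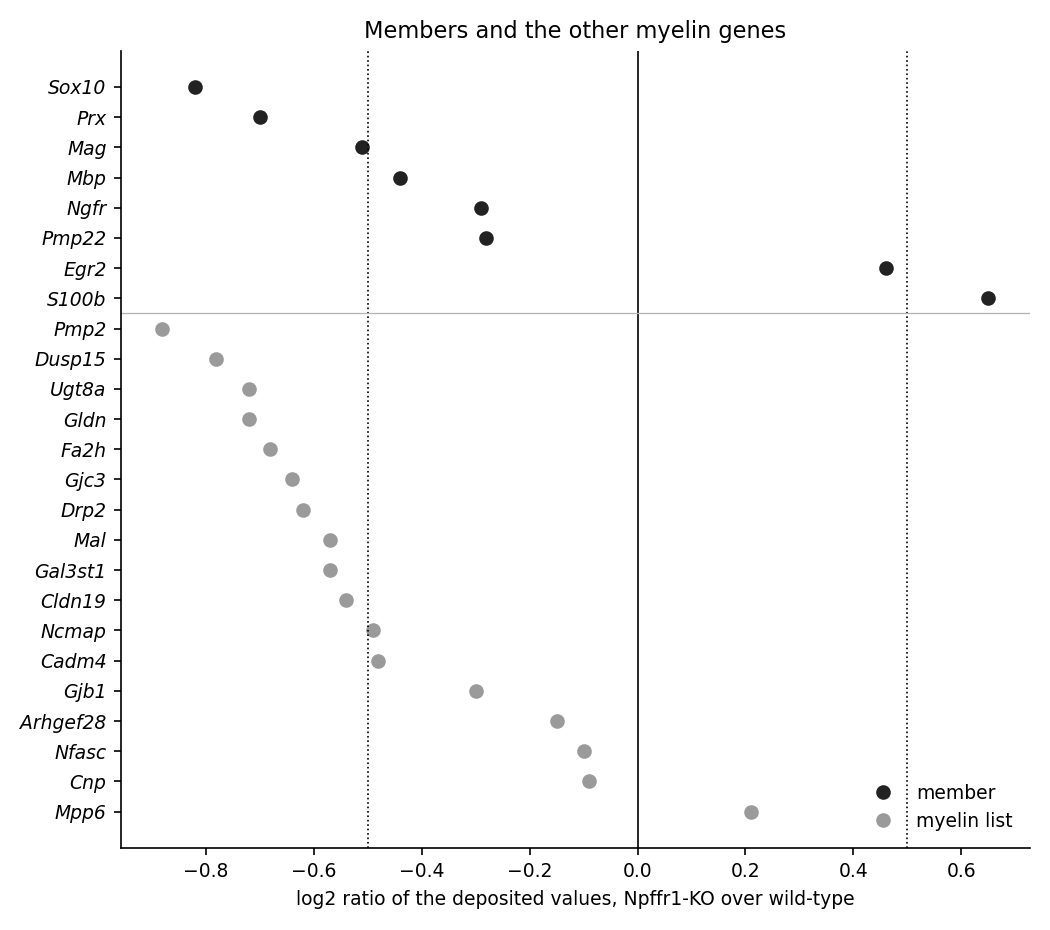
Log2 ratio of the deposited values, Npffr1-KO over wild-type (x axis), for the 8 genes (black) and 17 other myelin genes (grey), each group sorted; dotted lines mark 0.5 in size. *Sox10*, *Prx* and *Mag* lie past the line downwards and *S100b* upwards, and 16 of the 17 other myelin genes lie below 0.

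The other genes of myelin mostly had lower values in Npffr1-KO, and none of those fitted passed the test. Genes of a list share the same 6 libraries, and most of the myelin genes fitted varied together over them, so counts of genes are not independent evidence. Of 17 other genes of compact and non-compact myelin, 16 had a log2 ratio below 0, 10 were past 0.5 downwards and 0 upwards. Their median was -0.57. Over all 15309 genes that reached a mean of 10, 7474 were below 0, 4.78% were past 0.5 downwards and 4.37% upwards, and the median was 0.01. *Mal*, a proteolipid that sorts myelin membrane, had a log2 ratio of -0.57, the connexin gene *Gjc3* had -0.64 and *Cldn19*, a tight junction gene of myelin, had -0.54. *Cnp*, found in non-compact myelin, was listed at 2430.2 and 2284, with a log2 ratio of -0.09.

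Reads per library were found for 12 of the 17, and limma called 0 of them, while 6 had an unadjusted p under 0.05, all lower in Npffr1-KO, where 8.98% of all genes fitted were. The genotypes did not overlap for 2 of the 12, against 11.8% of all genes fitted in this direction. These were *Drp2* and *Dusp15*, which are named here after their values were seen. *Drp2*, the partner of periaxin, had 232, 394 and 378 in wild-type a, b and c, and 229, 178 and 229 in Npffr1-KO a, b and c. *Dusp15*, a phosphatase gene of myelinating glia, had 245, 396 and 337 in wild-type and 188, 158 and 206 in Npffr1-KO, with a limma log2 change of -0.80, an SE of 0.19 and an adjusted p of 0.0776. In both genes wild-type a was the wild-type library nearest to Npffr1-KO.

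Wild-type b held the highest level of 11 of the 12 myelin genes fitted, and of *Sox10*, *Mag* and *Ngfr*. Over all 9047 genes fitted it was the highest library for 19.8%. Summed over the 12 myelin genes, the normalized counts were 2628 in wild-type a, 4457 in b and 3682 in c, and 2669, 2488 and 2900.2 in Npffr1-KO a, b and c. By this sum wild-type a was inside the Npffr1-KO range, and wild-type b and c were above it. The median limma log2 change of the 12 genes was -0.64, with 6 at an unadjusted p under 0.05. Without wild-type b it was -0.39 with 1 such gene, without wild-type a -0.94 with 8, without wild-type c -0.62 with 2, without Npffr1-KO a -0.59 with 5, without Npffr1-KO b -0.50 with 3 and without Npffr1-KO c -0.84 with 9. In bulk tissue, fewer cells of a type and less RNA per cell cannot be told apart, and how much nerve each sample held was not recorded in the labels.

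**Figure D3:**
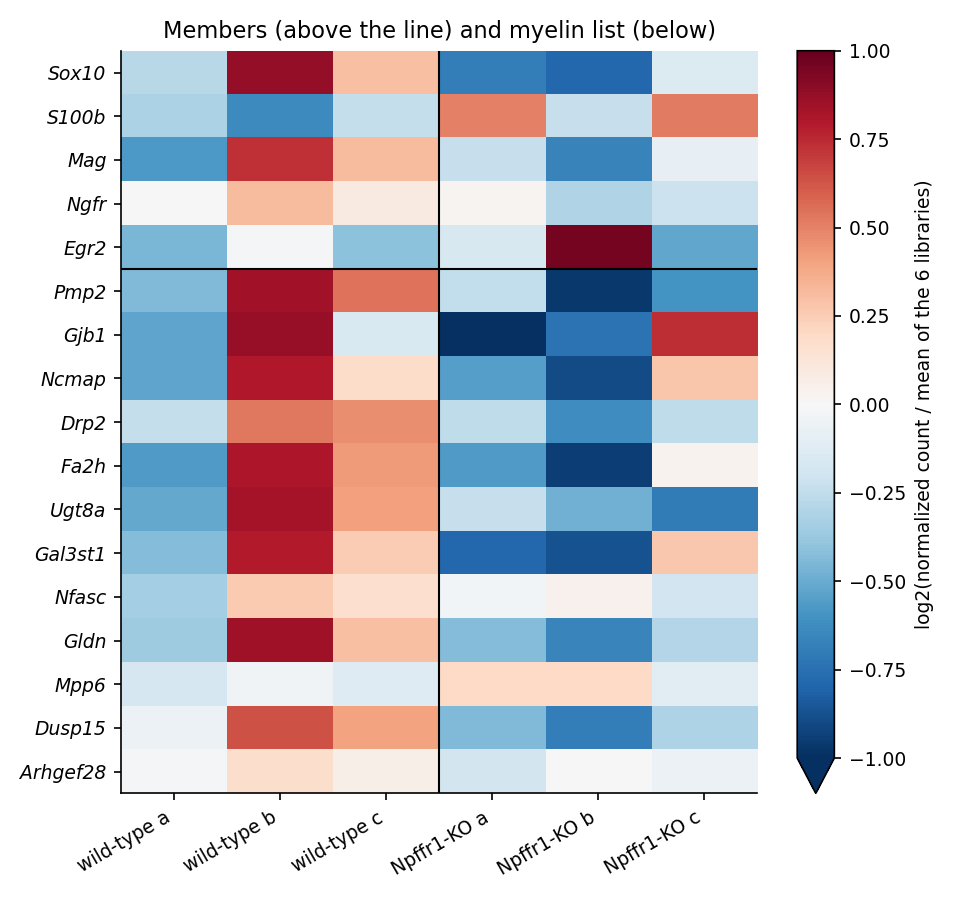
Log2 of the normalized count over the gene's mean of the 6 libraries (colour, red above and blue below the mean, ends at 1 and -1) for the 5 genes with reads per library (above the horizontal line) and 12 myelin genes (below it), with wild-type libraries left and Npffr1-KO libraries right of the vertical line. The column of wild-type b is the reddest for 14 of the 17 genes, that of wild-type a is mostly blue, and *S100b* and *Egr2* go their own ways.

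The genes whose pattern over the 6 libraries was most like that of *Sox10*, by Pearson r of log2(normalized count + 1) among 9046 other genes, were *Slc4a4* (r = 0.988), *Rhpn1* (0.985), *Zfp827* (0.983), *Kif3c* (0.982) and *Pou3f1* (0.981). *Pou3f1*, a transcription factor of promyelinating Schwann cells, had 186, 405 and 274 in wild-type a, b and c, and 171, 169.5 and 219 in Npffr1-KO a, b and c. The likeness of *Mag* to *Sox10* was 0.913 and that of *Ngfr* 0.778, while *Egr2* had -0.381 and *S100b* -0.560. The median over the 12 myelin genes was 0.90, and over all genes it was -0.03. All these values rest on the same 6 libraries and describe them only.

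Genes of the Schwann lineage outside myelin also had mostly lower values in Npffr1-KO. Immature and non-myelinating Schwann cells were represented by 15 genes that reached a mean of 10. Of these, 14 had a log2 ratio below 0 and 7 were past 0.5 downwards, beside 4.78% of all genes, with a median of -0.47. *Erbb3*, the neuregulin receptor on which Schwann cells depend, was listed at 123 and 83.0, a log2 ratio of -0.57. *Scn7a* and *Gap43* each had -0.54, and *Ednrb*, an endothelin receptor also made by other cells, had -0.30. The neurotrophic ligand gene *Artn* was listed at 14.7 and 9.68, a log2 ratio of -0.60. Limma called 0 of the 8 genes fitted. An unadjusted p under 0.05 was reached downwards by 1, *Gfra1*, a receptor of glial cell line-derived neurotrophic factor, and by 8.98% of all genes fitted.

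Glial transcription factors were mixed. Of 12, 8 had a log2 ratio below 0, with a median of -0.12. Past 0.5 were 3 downwards and 1 upwards, beside 4.78% and 4.37% of all genes, and limma called 0 of the 5 fitted. *Tead1*, which acts in the Hippo pathway, was listed at 2517 and 1578, a log2 ratio of -0.67. *Jun*, a factor of immature and repair Schwann cells and an immediate early gene of most cells, was listed at 5709 and 9085, a log2 ratio of 0.67. *Zeb2* stood at 0.03.

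Signals that Schwann cells receive from axons and matrix were mostly lower too. Of the 19 that reached a mean of 10, 16 had a log2 ratio below 0, and the median was -0.25. Past 0.5 were 3 downwards and 1 upwards, beside 4.78% and 4.37% of all genes. Limma called 0 of the 9 fitted. At an unadjusted p under 0.05 there were 3 of 9, all lower in Npffr1-KO, where 8.98% of all genes fitted were. *Itgb4*, the laminin receptor subunit of myelinating Schwann cells and of other cells, had -0.54. The neurotrophin receptor genes *Ntrk2* and *Ntrk3* had -0.63 and 0.64, and neither is particular to Schwann cells. The laminin and integrin genes *Lamc1*, *Lama4* and *Itgb1* had -0.27, -0.25 and -0.11.

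Axonal mRNA had no common direction. Of the 7 axon genes that reached a mean of 10, 3 had a log2 ratio below 0 and 4 above, with a median of 0.07. *Stmn2*, a growth cone gene, had 162, 299.6 and 188 in wild-type a, b and c, and 174, 220.0 and 290.2 in Npffr1-KO a, b and c. Wild-type b was the highest library of *Stmn2*, as it was for the myelin genes, but Npffr1-KO c came close to it. *Uchl1* and *Nefh* had limma log2 changes of -0.23 and 0.60, with adjusted p-values of 0.496 and 0.240.

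**Figure D4:**
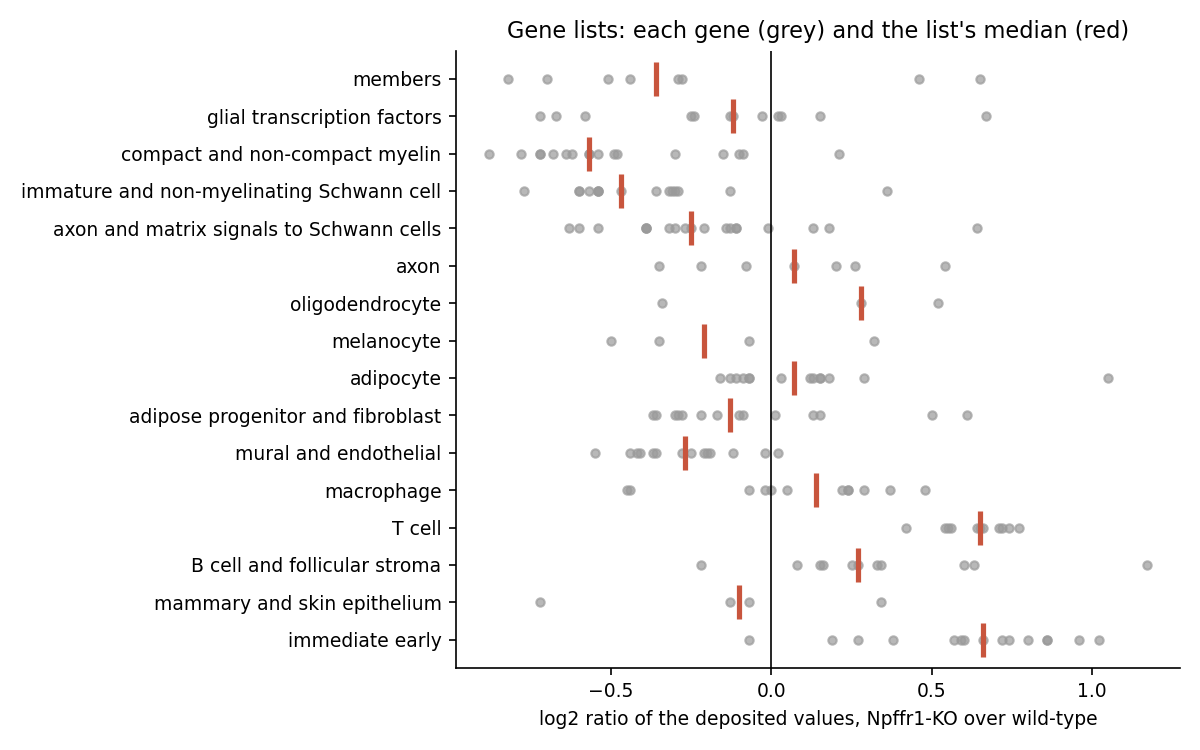
Log2 ratio of the deposited values, Npffr1-KO over wild-type (x axis), for every gene with a mean of at least 10 in the 8-gene set and in 15 lists of cell type and pathway genes (grey points), with each list's median as a red bar. Myelin and Schwann cell lists have medians of -0.57 and -0.47, and T cell and immediate early lists have medians of 0.65 and 0.66.

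Genes of T cells, B cells and the immediate early response had mostly higher values in Npffr1-KO, and 4 of them passed the test. All 11 listed T cell genes had a log2 ratio above 0 and 10 were past 0.5, with a median of 0.65. Limma called *Cd3e* and *Zap70* of the 3 T cell genes fitted, and 0.376% of all genes fitted in this direction. The sum over the 3 ran from 1573 to 1853 in wild-type and from 2311 to 2781 in Npffr1-KO, without overlap. Of 15 immediate early genes 14 were above 0 and 11 past 0.5, with a median of 0.66, and limma called *Arc* of the 5 fitted. Over all 15309 genes that reached a mean of 10, 7835 were above 0 and 4.37% were past 0.5 upwards. Of 11 genes of B cells and follicular stroma 10 were above 0 with a median of 0.27, and *Cr2* was called of the 2 fitted. Without wild-type b, limma called none of these 4 genes and 7 of all genes fitted, while their log2 changes were 0.66 for *Cd3e* (0.65 with all libraries), 0.67 for *Zap70* (0.72), 0.91 for *Arc* (1.10) and 1.09 for *Cr2* (1.22). Of 14 mural and endothelial genes 13 were below 0, with a median of -0.27, the 14 adipocyte genes had a median of 0.07, and no gene of either list was among those fitted by limma. The part of these cell types in the values of *S100b*, *Egr2*, *Ngfr*, *Mbp* and *Pmp22*, which are not made by Schwann cells alone, was not tested.

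Shorter genes tended to higher and longer genes to lower values in Npffr1-KO, with a median log2 ratio of 0.27 in the shortest and -0.15 in the longest of 20 length classes. Genes of the length of *S100b* had a median of 0.12 and those of the length of *Prx* -0.10. Relative to genes of like length, *S100b* stood at 0.54, *Prx* at -0.60, *Mbp* at -0.50 and *Sox10* at -0.85.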

How the data were processed

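RNA of 3 wild-type and 3 Npffr1-KO iAT samples was sequenced. The labels name Bowtie2 and RSEM, and DESeq2 was used by the authors for the normalized counts. The genome build is not given in the sources used here. The deposited table holds a signal, normalized counts scaled by the authors for library size, as 1 value per genotype, with gene lengths. Its columns of the authors' fold changes and p-values were not used, nor a second table filtered on them.

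The mean of both values is the mean over the 6 libraries, in total 23388674 normalized counts. The 585 genes with a single read take 6 values, which gave the size factors (0.916 to 1.04), and the higher genotype column of these genes gave each library's genotype. All whole-number combinations of reads that give the deposited total, to 15 digits, were then searched. Below a mean of 100 the total alone left 1 combination for 96.0% of genes. From 100 to values of 1000 the ratio had to match too, as a negative binomial model fitted to the table predicts it. The model's median error was 2.9e-06 (log2) in 1030 genes kept out of the fit. These genes all had means below 100, so this error was not measured in the range where the ratio had to match. A combination needed at least 99% of the likelihood and a dispersion within the model's bound, so genes with 1 outlying library are under-represented. Of the 6641 genes from a mean of 100 to values of 1000, 93.0% were recovered, and of 600 with a shifted total, 0.667% were. Recovered reads are inferred.

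limma 3.58.1 (trend, R 4.3.3) was run on log2(normalized count + 1) of 9047 genes with a mean of at least 10, two-sided, with Benjamini-Hochberg adjustment over all of them and a threshold of 0.05. Single genes had an exact permutation test (scipy 1.17.1). At 155 reads, the lowest of any member, counting error alone is 8.03%. Scripts were tested on simulated data. The genes described in full are the 8 members. From 15 other lists the 3 highest genes and those past a threshold were to be named. The members and lists were chosen with earlier results of these data known. Some genes of the myelin list are not reported here.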

Additional observations from a re-analysis of the deposited data

How the results depend on the processing

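The number of genes of the set past 0.5 in log2 ratio, 4, was 4 with a pseudocount of 1, after centring on all genes and after centring on genes of like length, 3 with a pseudocount of 10 and 6 at a size of 0.3. From the means of the recovered libraries it was 4 of 5, against 3 of 5 by the deposited values. The limma count of 0 among the 5 genes was the same with pseudocounts of 5 and 0.1, without a filter, at a mean of at least 25 and with upper-quartile scaling, and lay between 0 and 1 when each library was left out in turn. The count over all genes, 70, was 62 to 75 under the same settings and 7 to 151 with a library left out. It was 7 without wild-type b, 10 without wild-type c, 7 without Npffr1-KO a, 151 without Npffr1-KO b and 39 without Npffr1-KO c. The cause was not tested. Under upper-quartile scaling the number of the 5 genes whose genotypes did not overlap went from 1 to 0. Without Npffr1-KO b the log2 change of *Egr2* turned to -0.04, and without Npffr1-KO c it was 0.69. The median over the myelin list, an alternative chosen after seeing the data, lay between -0.94 and -0.39 with a library left out. No paired analysis was possible because the recovered libraries could not be tied to sample numbers. *Pmp22*, *Mbp* and *Prx* have no spread at all, and reads per library were inferred for genes of low and middle level only.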
